A study of Rattus norvegicus with 47 samples.

Results

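The genes described here encode subunits of the mitochondrial respiratory chain and of ATP synthase, with a few of their assembly and regulatory proteins. They were chosen by name: every probe set that the platform annotation gives exactly 1 gene symbol, where that symbol begins with Nduf, Uqcr, Cox4 to Cox8 or Atp5, or with Sdha, Sdhb, Sdhc or Sdhd. This found 101 probe sets for 55 genes, out of 8799 probe sets and 4737 genes with a probe set of their own. Complex I was covered by 24 genes, complex II by Sdha alone, complex III by 3 genes, complex IV by 12 and complex V by 9. The other 6 genes are no structural subunits: the ATP synthase inhibitor Atp5if1, the assembly factors Ndufaf3 and Sdhaf2, the paralogue Ndufa4l2, the supercomplex factor Cox7a2l and the pseudogene Cox6c-ps1. Subunits encoded by mitochondrial DNA carry other symbols and were not analysed here.

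Total RNA of rat brain after injury was hybridised to 47 oligonucleotide arrays, 1 sample each. Tissue came from the side of the injury (ipsilateral) or the other side (contralateral): cortex at 4 h, 7 ipsilateral and 8 contralateral arrays; cortex at 24 h, 8 and 8; and hippocampus, as "HC" in the labels was read, at 4 h, 7 and 9. All samples carry the same treatment entry, "wait", and the labels give no strain, age, kind of injury, or division into injured and sham-operated animals, so no group is an uninjured control. Whether each array holds a different animal, or groups share animals, is not stated. Groups were compared as unpaired, and the p-values reflect the scatter among arrays of a group, technical or biological.

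Complexes I to IV pass electrons from NADH and succinate to oxygen, and complexes I, III and IV pump protons across the inner mitochondrial membrane as they do so. Complex V, the ATP synthase, lets the protons return and uses their flow to make ATP. Neurons depend heavily on this supply, and subunits encoded in the nucleus are made in the cytosol and imported.

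Sequence before the transcription start is shown for 3 members whose values differ in kind below: Atp5po was lower at 24 h and in hippocampus, Ndufs1 was higher at 24 h, and Cox6a2 had the widest difference between regions. Each run is the 250 bases before the start in RefSeq (GRCr8), read 5′ to 3′ on the gene's strand, and each of these genes lies on the minus strand. Atp5po occupies chr11:44657484-44657733, Ndufs1 chr9:72073606-72073855 and Cox6a2 chr1:192219717-192219966. Capitals mark matches, on either strand, to GCGCATGC (a core of NRF1 sites; in Atp5po matches on both strands overlap), CCGGAAG (a core of ETS sites; in Ndufs1 on the reverse strand) and TAAAAATA (a core of MEF2 sites).
Atp5po: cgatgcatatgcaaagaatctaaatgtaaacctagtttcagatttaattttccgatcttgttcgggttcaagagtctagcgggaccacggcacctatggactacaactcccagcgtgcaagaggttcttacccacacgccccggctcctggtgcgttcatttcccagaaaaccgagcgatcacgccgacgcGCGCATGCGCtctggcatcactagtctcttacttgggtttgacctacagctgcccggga
Ndufs1: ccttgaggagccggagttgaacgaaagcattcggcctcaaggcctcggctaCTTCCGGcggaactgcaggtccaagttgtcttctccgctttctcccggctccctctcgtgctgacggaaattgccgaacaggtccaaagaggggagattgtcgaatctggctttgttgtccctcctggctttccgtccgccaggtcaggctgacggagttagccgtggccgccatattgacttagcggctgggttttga
Cox6a2: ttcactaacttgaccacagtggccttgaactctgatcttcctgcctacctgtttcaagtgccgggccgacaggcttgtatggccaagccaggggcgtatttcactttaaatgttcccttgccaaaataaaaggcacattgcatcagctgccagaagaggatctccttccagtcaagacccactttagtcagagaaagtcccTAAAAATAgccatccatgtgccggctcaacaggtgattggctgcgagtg
Of the 47 members whose upstream sequence was matched, 2 (4.26%) held GCGCATGC, against 2.2% of all 33469 sequences of this length. The ETS core stood in 9 members (19.1%) against 7.27% of all, and the MEF2 core in 1 (2.13%) against 2.44%. The motifs were picked after the sequences had been read, and a match is a description of letters, not of a bound site.

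Signals are linear brightness values as deposited. Those under 185.8, the 25th percentile of all values, were raised to that floor before log2 was taken, and a difference below is a difference between group means of log2 signal. A probe set was tested if at least 7 arrays exceeded the floor, which left 99 member probe sets, for all 55 genes, among 7503. The 2 left out, the probe set X64827cds_s_at for Cox8b and X72758mRNA_at for Cox6a2, were at the floor on all arrays, while 87 members were above it on every array. A probe set is called higher or lower here when its adjusted p in the linear model fit (limma, Benjamini-Hochberg over the 7503) was under 0.05.

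Array medians ran from 615 to 879. At 4 h the cortex arrays had the lowest medians of signal, with a group median of 719 ipsilaterally and 692 contralaterally, against 784 and 780 at 24 h and 753 and 831 in ipsilateral and contralateral hippocampus. Their ratio of 3′ to 5′ Gapdh probe sets, a measure of RNA integrity and labelling, was the highest: 1.22 and 1.2 against 1.09 and 1.07 at 24 h and 1.12 and 1.08 in hippocampus. The same ratio for beta-actin was 1.61 and 1.49 in cortex at 4 h, against 1.42 and 1.46 at 24 h and 1.35 and 1.22 in hippocampus. Contralaterally the beta-actin ratio thus differed little in time. Array medians and the Gapdh ratio therefore move with the time and region comparisons below, which all use the cortex arrays of 4 h. The part of these measures in the results was not tested. The labels number the Trizol extractions from 1 to 16 in cortex at 4 h, 17 to 32 in hippocampus and 33 to 48 in cortex at 24 h. Within each run the ipsilateral numbers come before the contralateral ones, except that contralateral hippocampal array 23 precedes ipsilateral array 24. Time, region and, but for those 2 arrays, side therefore cannot be told apart from extraction order. Of 4 hippocampal markers 2 were measured. Neurod1 was higher in hippocampus than in cortex of 4 h by 1.66 ± 0.13 (SE) contralaterally and 1.92 ± 0.14 ipsilaterally, whereas Nptx1 was higher ipsilaterally by 0.83 ± 0.13 and not called contralaterally (0.18 ± 0.12, adjusted p = 0.258). None of the 4 cortical markers was measured.

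Across the whole set, transcripts were most abundant in cortex at 4 h, lower in cortex at 24 h and lowest in hippocampus at 4 h, on both sides. Each probe set was centred on its mean over all arrays and the 99 were averaged within an array. In ipsilateral cortex at 4 h this average was lowest at 0.07, had a median of 0.16 and was highest at 0.23. Contralateral cortex at 4 h gave 0.11, 0.14 and 0.2. At 24 h the values were −0.1, −0.02 and 0.06 ipsilaterally and −0.1, 0.01 and 0.11 contralaterally. Ipsilateral hippocampus gave −0.23, −0.11 and −0.05 and contralateral hippocampus −0.22, −0.15 and −0.06. No hippocampal array overlapped a cortex array of 4 h, the 2 sides overlapped in each region and time, and cortex arrays of 24 h overlapped both other sets. The same average over all 7503 probe sets ran the other way on the contralateral side, with a mean of −0.05 in cortex at 4 h and 0.07 in hippocampus.

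**Figure D1:**
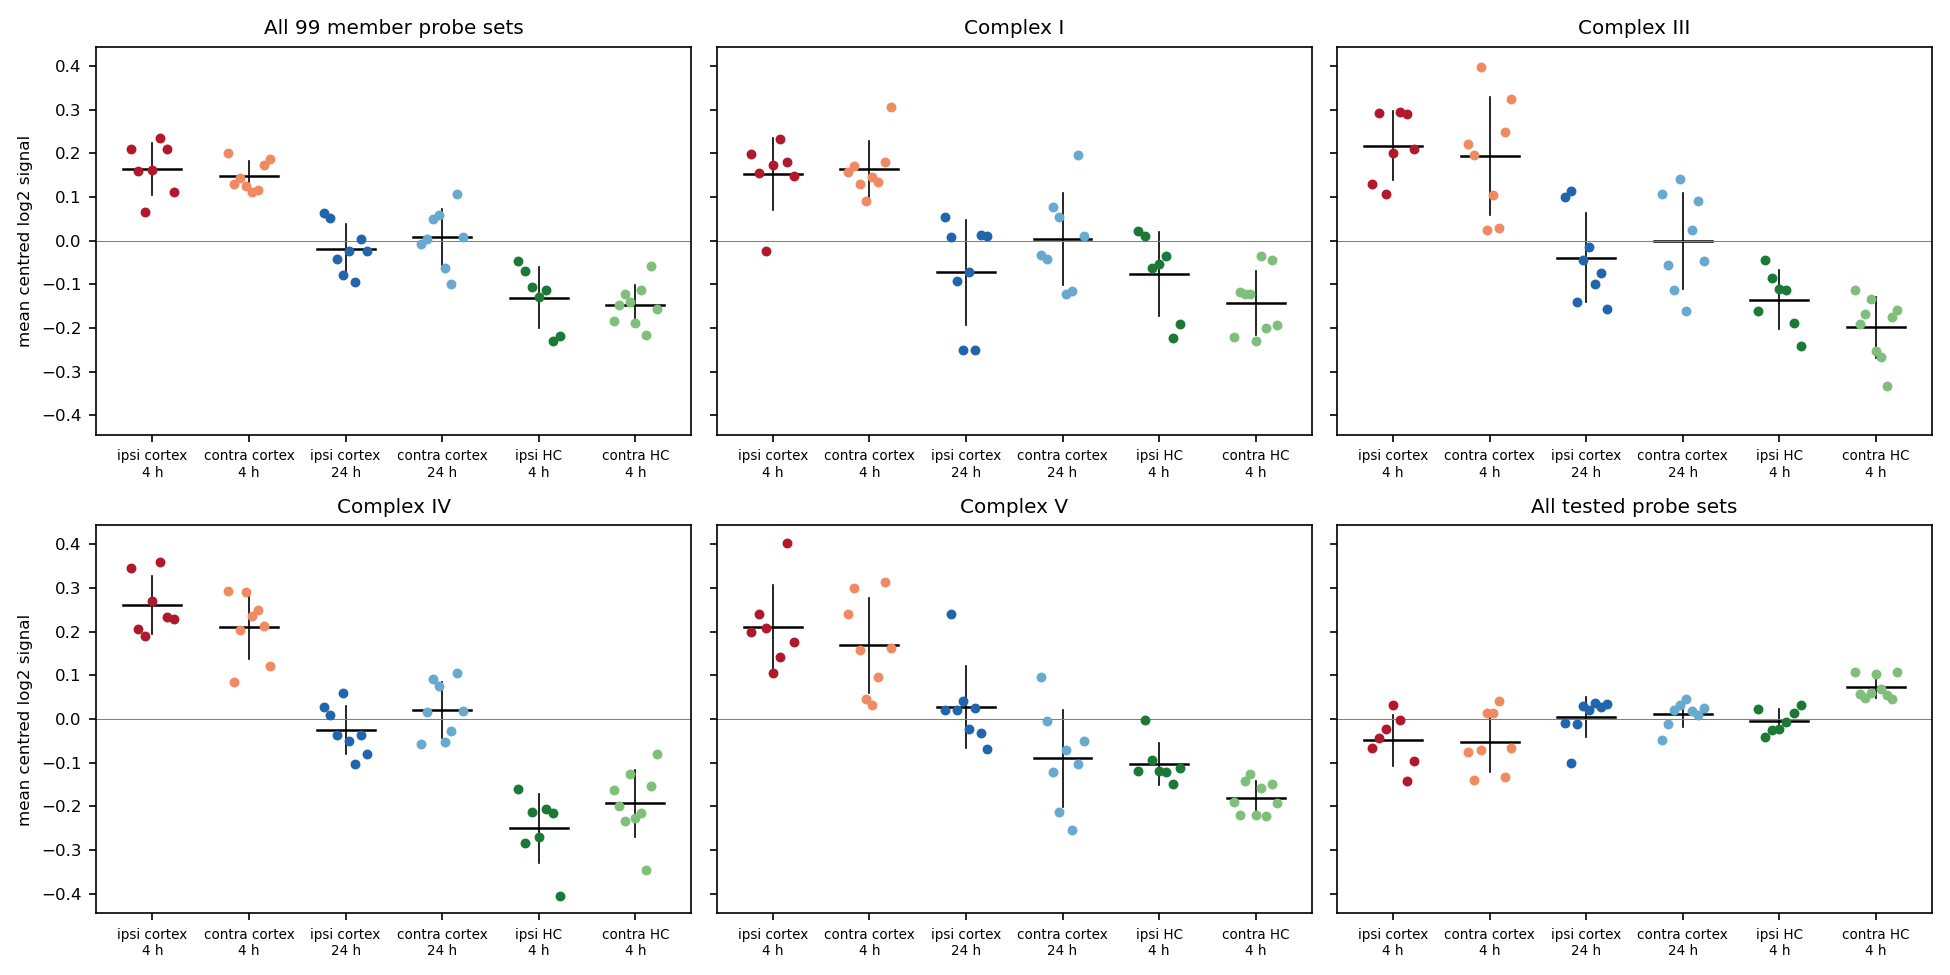
Mean centred log2 signal per array (y axis) of all 99 member probe sets, of complexes I, III, IV and V, and of all 7503 tested probe sets, in the 6 groups (x axis; HC, hippocampus). Points are arrays, spread sideways only for legibility, thick lines are group means and thin lines ±1 SD; the member average lies between 0.07 and 0.23 on the cortex arrays of 4 h and at or below −0.05 on every hippocampal array.

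The first question the design puts is whether the injured side differed from the other. In cortex, no member was called at either time. At 4 h the median member difference, ipsilateral minus contralateral, was 0.01, the smallest adjusted p in limma was 0.532, and 0.0% of all tested probe sets were called. An unadjusted p under 0.05 was reached by 2 members (2.02%), against 558 of all tested (7.44%). These were the 2 closest to the threshold: Atp5pd, a peripheral stalk subunit of ATP synthase, with a difference of 0.27 ± 0.1 (SE; adjusted p = 0.532), and the probe set rc_AA799479_g_at for Ndufs8 with 0.22 ± 0.11 (adjusted p = 0.666).

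At 24 h the median member difference between the sides was −0.05, 66 of the 99 were below 0, and none was called, against 0.107% of all tested. Unadjusted p was under 0.05 for 9 members (9.09%) against 7.66% of all tested. The smallest p belonged to both probe sets for Atp5pf, coupling factor 6 of the stalk. In X54510_g_at the lowest, median and highest signals were 7709, 9473 and 11467 ipsilaterally and 3840, 7773 and 9589 contralaterally, so the sides overlapped. The difference was 0.56 ± 0.17 (SE; adjusted p = 0.219), and in X54510_at it was 0.27 ± 0.093 (adjusted p = 0.349). The change of the cortical side difference from 4 to 24 h was called for no member and for 0.0% of all tested probe sets, with unadjusted p under 0.05 for 2 members (2.02%) and 421 of all (5.61%). The 2 were Cox4i2 with −0.39 ± 0.18 and Ndufa4 with −0.35 ± 0.16 (adjusted p = 0.88 each). For Ndufa4, array 16 of contralateral cortex at 4 h was low, with a log2 signal of 13.23 against 14.35 to 14.64 on the others.

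In hippocampus at 4 h, 9 member probe sets were lower and 6 higher on the ipsilateral side. These 15 are 15.2% of the members against 16.1% of all tested probe sets, and by direction 9.09% against 10.8% lower and 6.06% against 5.32% higher, so the members' share was near the background. The median member difference was 0.04 against −0.04 over all tested. Higher on the ipsilateral side were Cox7a2l, which takes part in joining complexes into supercomplexes, the complex I accessory subunits Ndufs4, Ndufa5 and Ndufa6, the Rieske protein Uqcrfs1 of complex III and Cox5b of complex IV. The signal of Cox7a2l in rc_AI172452_at was lowest at 7804, had a median of 10310 and was highest at 10925 ipsilaterally, against 5466, 7020 and 8315 contralaterally. The sides overlapped at the edge, and the difference was 0.49 ± 0.14 (SE; adjusted p = 0.0121).

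Lower on the ipsilateral side were, among others, Cox4i2, 2 probe sets of Ndufa4l2 (−0.62 ± 0.15 and −0.41 ± 0.15), and 1 probe set each of Ndufb8 (−0.53 ± 0.17) and Ndufa6 (rc_AI229924_at, −0.48 ± 0.13). Ndufa6 thus had probe sets called in both directions, since rc_AA819547_at was higher by 0.25 ± 0.085. When each array's 10th percentile of signal entered the model no member was called; this percentile ran from 45.8 to 98.9 on contralateral and from 36.4 to 56.7 on ipsilateral hippocampal arrays, and its part in the calls was not tested further. Without ipsilateral array 18, or without array 20, 9 members were called instead of 15.

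Subunit transcripts were lower in cortex at 24 h than at 4 h after injury on both sides, in arrays that also differ in extraction order. Ipsilaterally 45 of the 99 member probe sets, for 29 genes, were lower at 24 h and 2 were higher. The 47 are 47.5% against 19.3% of all tested probe sets, with 45.5% of members against 7.92% of all lower, and 2.02% against 11.4% higher. Contralaterally 35, for 23 genes, were lower and 6 higher, 41 in all (41.4% against 21.5%), with 35.4% against 8.25% lower and 6.06% against 13.2% higher. The median member difference was −0.22 ipsilaterally and −0.18 contralaterally, against 0.03 and 0.04 over all tested. Members are bright, and bright probe sets were called lower more often. Among the 2204 other probe sets at least as bright as the members' lower quartile, 17.1% were lower ipsilaterally and 18.3% contralaterally. Both lists shared 32 probe sets for 21 genes, 71.1% of the ipsilateral and 91.4% of the contralateral list. The overlap was not counted over all tested probe sets, so it is not shown to be particular to the members. After quantile normalization 27 instead of 41 members were called contralaterally, with a median of −0.12.

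Transcripts of these complexes were also lower in hippocampus than in cortex at 4 h. Contralaterally 55 member probe sets, for 35 genes, were lower and 4 higher. The 59 are 59.6% against 33.7% of all tested, with 55.6% against 11.4% lower and 4.04% against 22.3% higher. Ipsilaterally 49, for 33 genes, were lower and 2 higher, 51 in all (51.5% against 27.5%), with 49.5% against 10.8% lower and 2.02% against 16.7% higher. The medians were −0.35 and −0.29. Of the bright probe sets outside the set, 22.5% and 20% were lower. The contralateral median over all tested probe sets was 0.11; quantile normalization took it to 0.01 and the member median to −0.25. Both lists shared 43 probe sets for 29 genes, 78.2% of the contralateral and 87.8% of the ipsilateral list. Here too the overlap over all tested probe sets was not counted.

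The time and region comparisons of a side share their 4 h cortex arrays and so are not independent of each other. With cortex of 24 h in place of 4 h, a comparison added after the data were seen, 30 members were lower in contralateral hippocampus and 1 higher, 30.3% lower against 9.53% of all tested and 17% of the bright probe sets. Ipsilaterally 6 were lower and none higher, 6.06% against 5.7% of all and 8.8% of the bright ones. The medians were −0.12 and −0.07. The regional difference was thus smaller against cortex of 24 h, where region and time differ together and cannot be told apart. In tissue RNA, fewer cells of a type and less RNA per cell cannot be told apart either.

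**Figure D2:**
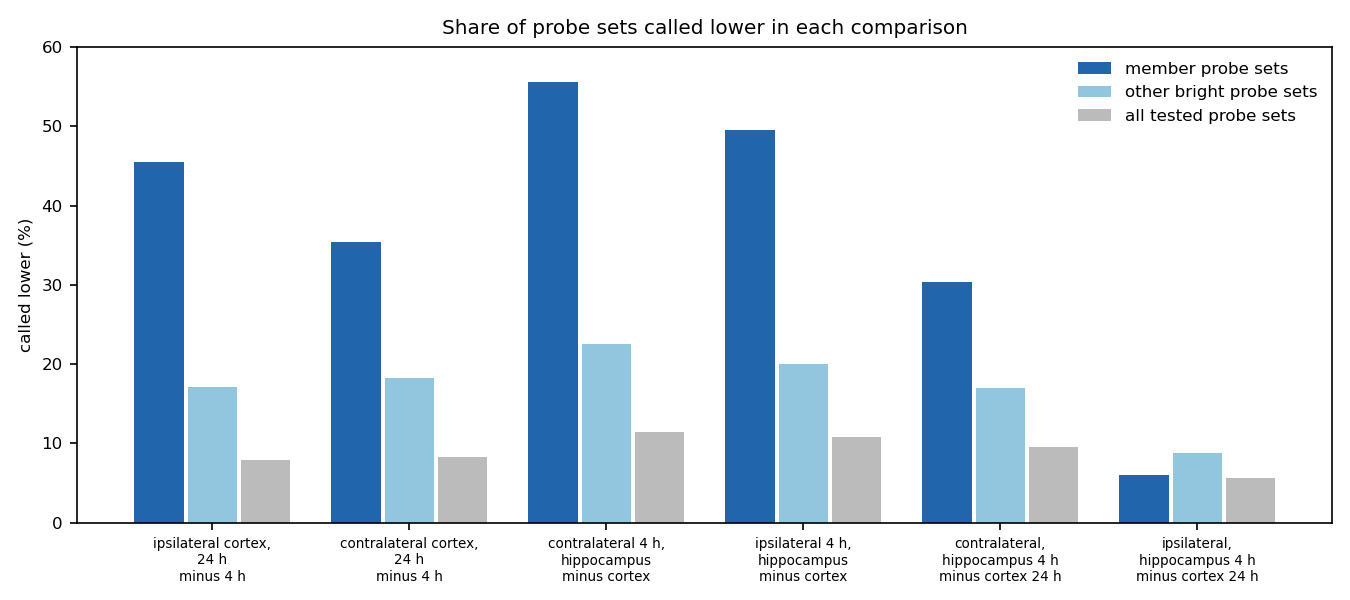
Share of probe sets called lower (y axis, percent; adjusted p under 0.05 in limma) in the time and region comparisons and in the added comparisons with cortex of 24 h (x axis). Dark bars are the 99 members, light bars the 2204 other bright probe sets and grey bars all 7503 tested, which include the members; members run from 55.6% in contralateral hippocampus against cortex of 4 h to 6.06% in ipsilateral hippocampus against cortex of 24 h.

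By complex, the calls were spread as follows. From 4 to 24 h in ipsilateral cortex, 20 of 40 complex I probe sets were lower, 4 of 6 of complex III, 14 of 23 of complex IV and 7 of 13 of complex V, while Sdha of complex II and the 16 probe sets of non-structural members gave none lower. Contralaterally the numbers were 13, 3, 11 and 7, none for Sdha and 1 for the non-structural members. In hippocampus against cortex of 4 h they were 23, 4, 14 and 9 contralaterally and 19, 3, 16 and 7 ipsilaterally, with 5 and 4 of the 16 others. No difference between complexes was tested.

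**Figure D3:**
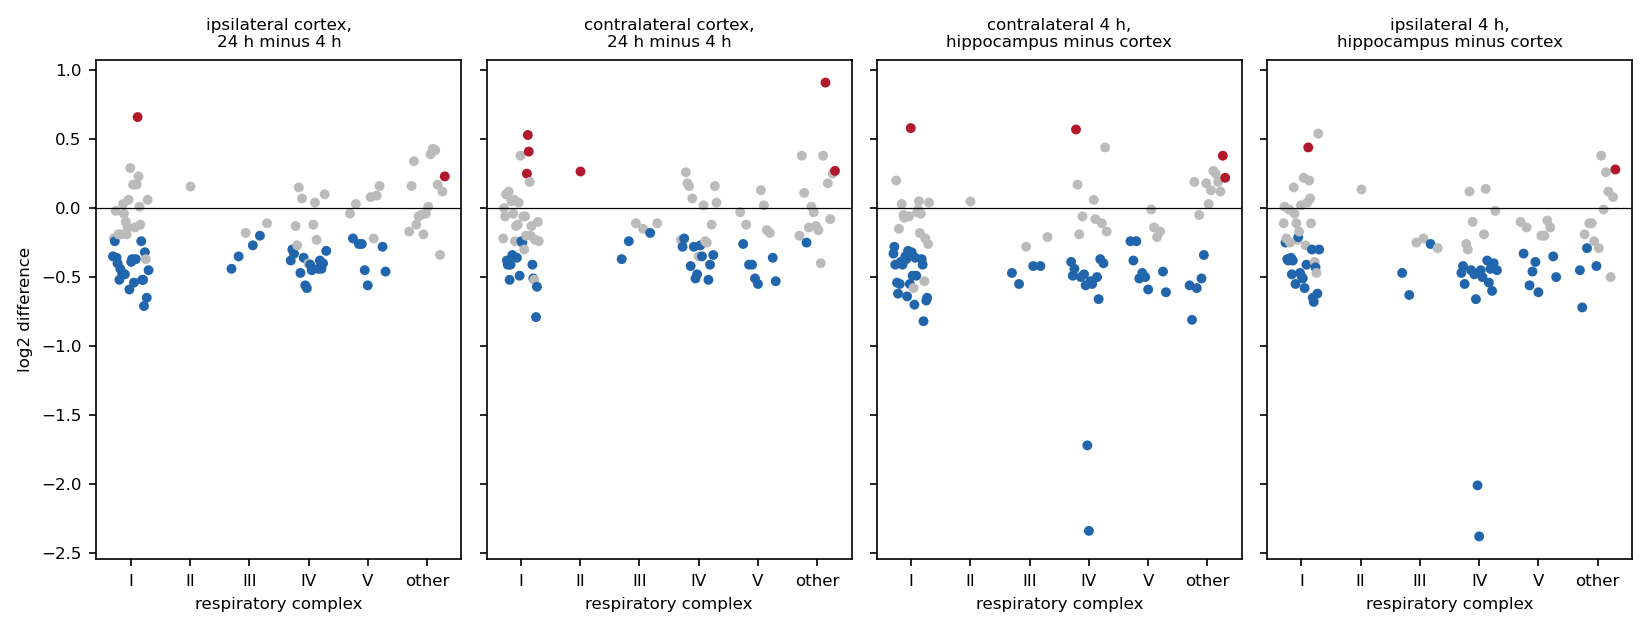
Difference in mean log2 signal (y axis) for each of the 99 member probe sets by complex (x axis) in the 4 time and region comparisons. Blue points were called lower, red points higher (adjusted p under 0.05 in limma) and grey points neither; complexes I, III, IV and V lie mostly below 0, and the lowest points, −2.34 and −2.38, are Cox6a2 in hippocampus against cortex.

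The core subunits of complex I, which carry the flavin and iron-sulphur clusters of the electron path, held falls in Ndufv2, Ndufs7 and Ndufs8 and a rise in Ndufs1. Ndufv2, an iron-sulphur subunit near the NADH site, had signals lowest at 12270, median 17266 and highest 25677 in ipsilateral cortex at 4 h, and 14985, 18956 and 23936 contralaterally. At 24 h these were 8823, 11205 and 13732, and 10717, 12541 and 15508. Hippocampus gave 9098, 11334 and 14964 ipsilaterally and 10553, 12445 and 15391 contralaterally. Cortex of 4 h was the higher by its median on each side, and its range overlapped that of the other groups, contralaterally only at the edge. The time difference was −0.65 ± 0.12 (SE; adjusted p = 5.21e-05) ipsilaterally and −0.57 ± 0.11 (adjusted p = 0.000151) contralaterally. The region difference was −0.62 ± 0.12 ipsilaterally and −0.65 ± 0.11 contralaterally.

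Ndufs8, which passes electrons towards ubiquinone, is read by 4 probe sets. In AA685112_at the signal in contralateral cortex was lowest at 3684, median 4448 and highest 6229 at 4 h and 2799, 3156 and 3721 at 24 h, with 2284, 2474 and 3028 in contralateral hippocampus. Hippocampus did not overlap cortex of 4 h, and the cortex groups met at the edge. The region difference was −0.82 ± 0.093 (SE; adjusted p = 1.02e-09) contralaterally and −0.68 ± 0.1 ipsilaterally, and the time difference −0.51 ± 0.096 contralaterally and −0.52 ± 0.099 ipsilaterally. The other probe sets of Ndufs8 also lay below 0 in these 4 comparisons, from −0.79 to −0.22, and were called in some only. Its dim probe set rc_AA799479_at was called lower in ipsilateral cortex at 24 h (adjusted p = 0.038), but with 6 of 7 arrays above the floor at 4 h and 2 of 8 at 24 h its difference of −0.71 ± 0.25 depends on the floor. Ndufs7, its neighbour in complex I, was called lower in the same 4 comparisons, from −0.65 to −0.41.

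Ndufs1, the largest core subunit, went the other way. Its signal was lowest at 727, median 1137 and highest 1497 in ipsilateral cortex at 4 h and 1252, 1904 and 2116 at 24 h. Contralaterally the values were 943, 1327 and 1634 at 4 h and 1631, 1774 and 2364 at 24 h. The ranges overlapped ipsilaterally and met at the edge contralaterally. Ndufs1 rose by 0.66 ± 0.15 (SE; adjusted p = 0.000954) ipsilaterally and 0.53 ± 0.14 (adjusted p = 0.00448) contralaterally. In hippocampus it was lowest at 1116, median 1526 and highest 1854 ipsilaterally, higher than cortex of 4 h by 0.44 ± 0.15 (adjusted p = 0.0241). Contralateral hippocampus gave 946, 1343 and 1651, a difference of −0.01 ± 0.14.

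The 20 accessory genes of complex I, which surround the core and stabilise it, were read by 33 probe sets. From 4 to 24 h, 15 fell ipsilaterally, with none higher, and 9 contralaterally, with 2 higher. In hippocampus 19 were lower and 1 higher contralaterally, and 15 lower and none higher ipsilaterally. Ndufa8, Ndufa9 and Ndufb10 were lower in all 4 comparisons, between −0.62 and −0.34. Ndufb6 in rc_AI104528_at had signals lowest at 6354, median 8318 and highest 9759 in ipsilateral cortex at 4 h and 4344, 5438 and 6229 at 24 h. These did not overlap, and the difference was −0.59 ± 0.11 (SE; adjusted p = 0.000186); its other probe set gave 0.06. Ndufb9 was lower in contralateral hippocampus by −0.7 ± 0.14, with 7476, 19013 and 22312 against 25571, 26811 and 30267 in cortex of 4 h, and no overlap.

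Ndufa5 changed in a different pattern from Ndufv2. Its signals in hippocampus were lowest at 7555, median 9457 and highest 10402 ipsilaterally and 4824, 7744 and 8916 contralaterally, overlapping, with a side difference of 0.35 ± 0.1 (SE; adjusted p = 0.0162). Contralateral hippocampus was lower than contralateral cortex of 4 h (6746, 9381 and 10315) by −0.28 ± 0.097 (adjusted p = 0.0214), while the ipsilateral difference was 0.01 ± 0.11. In time it did not pass the test, with −0.22 ± 0.1 ipsilaterally and 0.0 ± 0.099 contralaterally. Ndufs4 and Ndufc2 were higher in contralateral cortex at 24 h, Ndufs4 in rc_AI013297_at by 0.41 ± 0.11 (adjusted p = 0.00719) and Ndufc2, another accessory gene, by 0.25. The 4 probe sets of Ndufb8 disagreed: rc_AA851403_g_at and rc_AA964320_at were lower in all 4 comparisons, between −0.51 and −0.24, whereas rc_AA851403_at was higher in contralateral hippocampus by 0.58 ± 0.17 (adjusted p = 0.00513) and rc_AA999168_at was not called.

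**Figure D4:**
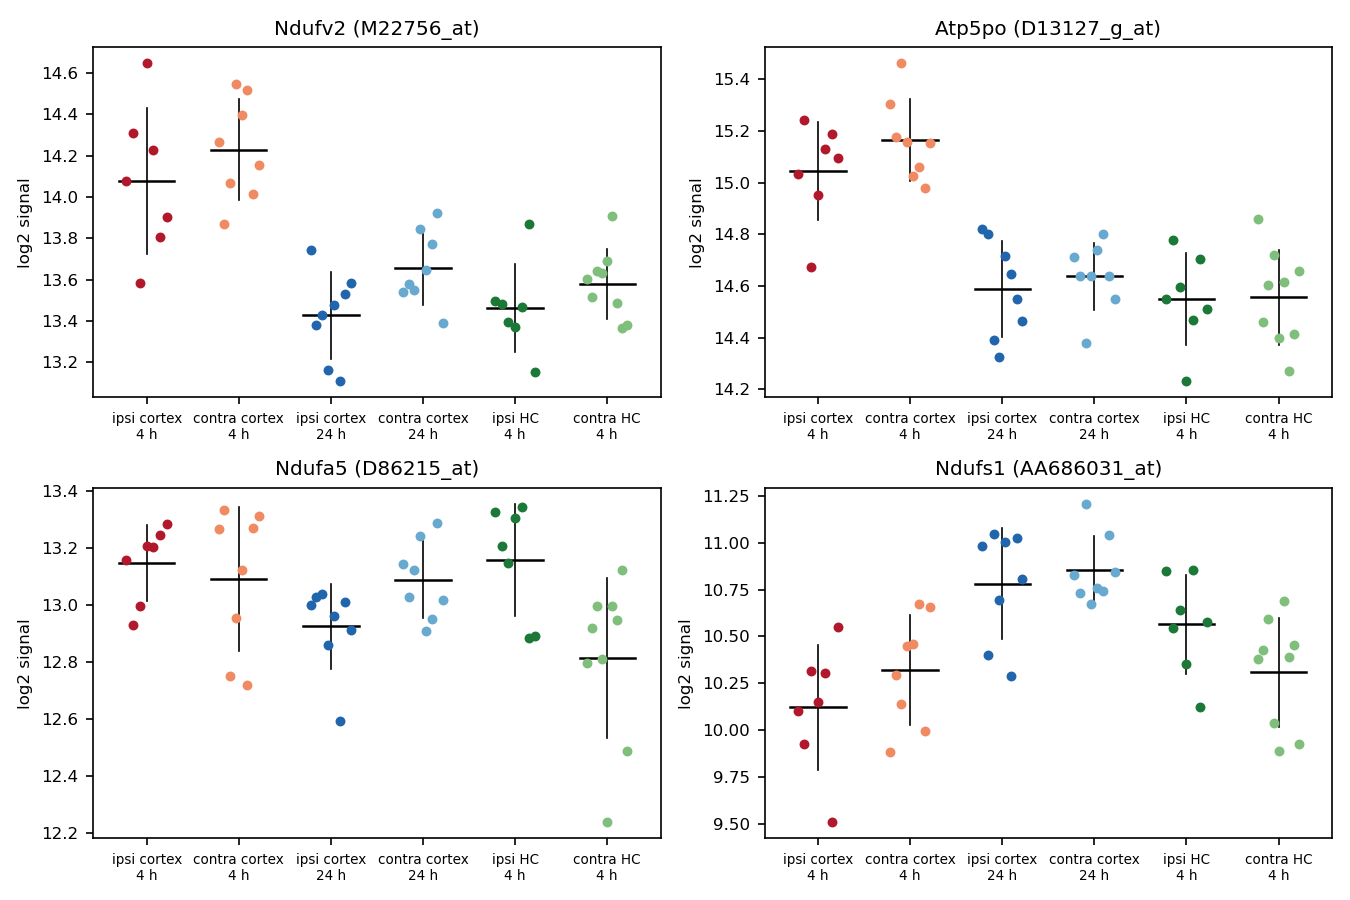
Log2 signal (y axis) of Ndufv2, Atp5po, Ndufa5 and Ndufs1 on each array in the 6 groups (x axis; HC, hippocampus). Points are arrays, spread sideways only for legibility, thick lines means and thin lines ±1 SD; Ndufv2 and Atp5po are highest in cortex at 4 h, Ndufs1 is highest in cortex at 24 h, and in hippocampus Ndufa5 is higher ipsilaterally (difference 0.35).

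Complex II and III gave few genes. Sdha, the flavin subunit that oxidises succinate, had signals lowest at 6922, median 9893 and highest 11911 in contralateral cortex at 4 h and 10405, 11384 and 12617 at 24 h, overlapping, and rose by 0.27 ± 0.089 (SE; adjusted p = 0.0207); the ipsilateral difference was 0.16 ± 0.092 (adjusted p = 0.229). It was called in no region comparison. Sdhaf2, which helps attach the flavin to Sdha, was the only member higher in all 4 comparisons, by 0.23 ± 0.074 and 0.27 ± 0.071 in time and 0.28 ± 0.076 and 0.22 ± 0.069 between regions, ipsilaterally and contralaterally. In complex III both probe sets of Uqcr11, a small subunit, were lower in all 4, between −0.63 and −0.24. One probe set of the Rieske protein Uqcrfs1 was lower in all 4, from −0.42 to −0.18, and Uqcrc2, a core protein, was called in none.

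Complex IV, cytochrome c oxidase, has subunits with tissue-specific isoforms, and its members held the widest differences between regions. Cox6a2 is the isoform of heart and skeletal muscle and is also described in parvalbumin interneurons of the brain. Its signal in X12554cds_s_at was lowest at 5207, median 6946 and highest 8046 in ipsilateral cortex at 4 h, and 1370, 1667 and 1919 in ipsilateral hippocampus. Contralaterally cortex gave 4899, 7048 and 7568 and hippocampus 1659, 1997 and 2519. No hippocampal array overlapped a cortical one, of 24 h included (3720, 4393 and 5270 ipsilaterally; 4052, 4693 and 6205 contralaterally). The region difference was −2.01 ± 0.11 (SE; adjusted p = 2.85e-20) ipsilaterally and −1.72 ± 0.099 (adjusted p = 2.6e-19) contralaterally, 4.02-fold and 3.31-fold lower. From 4 to 24 h it fell by 0.58 ± 0.11 and 0.48 ± 0.1.

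The second tested probe set of Cox6a2, rc_AI171644_s_at, differed by −2.38 ± 0.18 (SE) ipsilaterally and −2.34 ± 0.16 contralaterally between regions (5.22-fold and 5.06-fold lower), with signals from 3104 to 5044 in ipsilateral cortex at 4 h and 526 to 1016 in hippocampus. It was not called in time (−0.4 ± 0.17 and −0.35 ± 0.17). Parvalbumin itself (Pvalb), looked up after these values were seen, differed between regions by −0.86 ± 0.11 ipsilaterally and −1.38 ± 0.1 contralaterally. Between the hippocampal sides Pvalb was higher ipsilaterally by 0.43 ± 0.11 (adjusted p = 0.00529). Cox6a2 in X12554cds_s_at was lower there by −0.3 ± 0.1 (adjusted p = 0.0375), a call lost with the percentile of array signal in the model. In rc_AI171644_s_at the signal was lowest at 526, median 715 and highest 1016 ipsilaterally, against 288, 918 and 996 contralaterally. Its lowest and highest values were thus above the contralateral ones and its median below, so a fall was not clear in this probe set. Over time Pvalb gave −0.05 ± 0.11 ipsilaterally and −0.23 ± 0.1 contralaterally, not called. The summed signal of 7 skeletal and heart muscle markers, each by its brightest probe set, lay between 1679 and 4162 on every array. None of these 7 probe sets was called between regions. Between the hippocampal sides 1 of the 7 was called lower ipsilaterally, 1 was above 0, and the list median was −0.45. Group medians of the sum were 1944 in ipsilateral and 3037 in contralateral hippocampus. Whether the difference in Cox6a2 follows cell types was not tested.

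The general isoform Cox6a1 was lower too, but by less. In rc_AI104520_s_at its signal was lowest at 66813, median 77541 and highest 81089 in ipsilateral cortex at 4 h, 46834, 49829 and 53776 at 24 h, and 38915, 47822 and 50530 in ipsilateral hippocampus. Cortex of 4 h overlapped neither. The differences were −0.56 ± 0.067 (SE; adjusted p = 1.08e-07) in time and −0.66 ± 0.069 (adjusted p = 1.65e-10) between regions, with −0.51 ± 0.065 and −0.56 ± 0.063 contralaterally. A second probe set, X72757_g_at, was lower in all 4 comparisons and the third, X72757_at, in none.

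Cox4i1, the general form of subunit 4, and Cox4i2, a form linked to low oxygen in other tissues, were called in opposite directions in 1 comparison, contralateral hippocampus against cortex. In Cox4i1 the probe set rc_AA818226_s_at fell by 0.33 ± 0.065 (SE) ipsilaterally and 0.22 ± 0.062 contralaterally from 4 to 24 h, and hippocampus was lower than cortex by −0.55 ± 0.067 and −0.44 ± 0.061. Cox4i2 had signals lowest at 2363, median 3512 and highest 4352 in contralateral hippocampus, 1820, 2111 and 2758 in ipsilateral hippocampus, 1874, 2345 and 2848 in contralateral and 1953, 2622 and 3508 in ipsilateral cortex at 4 h. Contralateral hippocampus was the highest group and overlapped each of the others. It exceeded contralateral cortex by 0.57 ± 0.12 (adjusted p = 0.000184), while ipsilaterally the region difference was −0.26 ± 0.13 (adjusted p = 0.136). The time differences were −0.13 ± 0.13 ipsilaterally and 0.26 ± 0.12 contralaterally and did not pass, and the hippocampal sides differed by −0.65 ± 0.12 (adjusted p = 0.000609).

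Cox4i2 was also the only member whose side difference at 4 h differed between hippocampus and cortex, by −0.83 ± 0.18 (SE; adjusted p = 0.00782). This is 1 of 99 members, 1.01%, against 4.18% of all tested probe sets called and 3.11% called lower. In cortex at 4 h the side difference was 0.17 ± 0.13 (adjusted p = 0.805). No member was called in this comparison once each array's 10th percentile of signal entered the model.

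**Figure D5:**
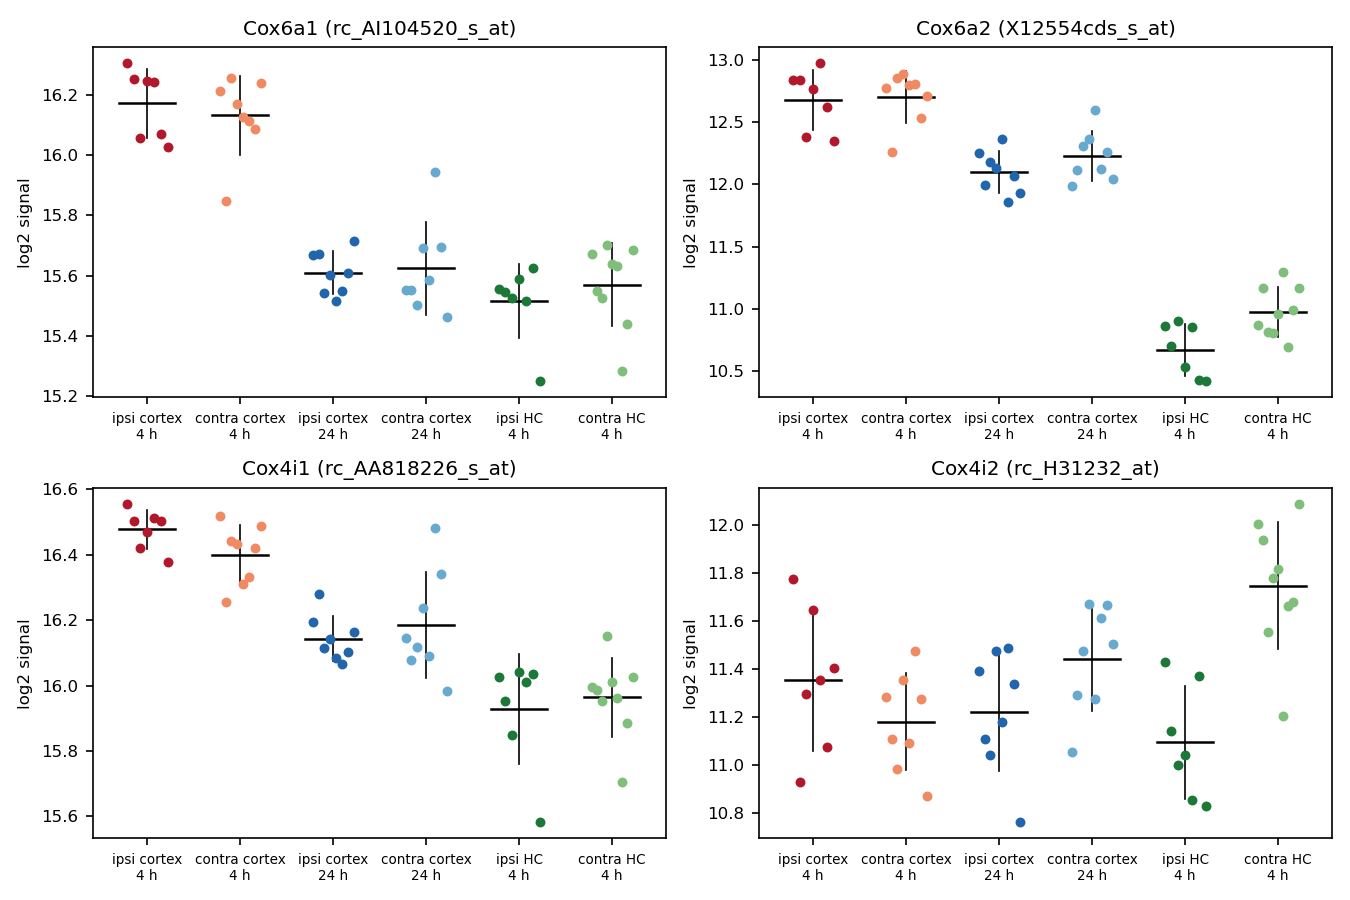
Log2 signal (y axis) of the isoform pairs Cox6a1 and Cox6a2, and Cox4i1 and Cox4i2, on each array in the 6 groups (x axis; HC, hippocampus). Points are arrays, spread sideways only for legibility, thick lines means and thin lines ±1 SD; panels have their own axes and levels are not comparable between probe sets. Cox6a2 separates hippocampus from cortex completely, and Cox4i2 is highest in contralateral hippocampus.

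Of the remaining subunits of complex IV, Cox8a, Cox6b1 and Cox5b had probe sets lower in all 4 comparisons. In Cox8a, L48209_s_at had signals lowest at 51722, median 56384 and highest 72467 in contralateral cortex at 4 h, 35981, 40175 and 45389 at 24 h, and 32030, 35810 and 44643 in contralateral hippocampus. Cortex of 4 h overlapped neither, and the differences were −0.52 ± 0.066 (SE; adjusted p = 1.45e-07) in time and −0.66 ± 0.064 (adjusted p = 9.88e-12) between regions. Of the 4 probe sets of Cox8a, 3 were lower in all 4 comparisons and the other in the 2 ipsilateral ones. The muscle isoform Cox8b was close to the floor, with group medians between 225 and 353 in U40836mRNA_s_at, and was not called. Both probe sets of Cox6b1 were lower in all 4 comparisons, between −0.55 and −0.27, as was 1 of Cox5b, between −0.5 and −0.42. Ndufa4, first assigned to complex I and now to complex IV, was lower in the ipsilateral comparisons, by −0.31 ± 0.11 in time and −0.45 ± 0.12 between regions. In contralateral cortex at 4 h its log2 signal was low on array 16 (13.23, others 14.35 to 14.64), which enters both contralateral comparisons. Cox6c was called in none, and neither was the member probe set of Cox5a, rc_AI104513_at, with group medians between 494 and 692. A further probe set that names Cox5a together with LOC100361008, X15030_at, is no member by the rule and was lower in all 4 comparisons, by −0.38 ± 0.085 and −0.42 ± 0.082 in time and −0.48 ± 0.088 and −0.61 ± 0.08 between regions, ipsilaterally and contralaterally.

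In ATP synthase the F1 part was read by 7 probe sets. It is made of the head of alpha and beta subunits, with the catalytic sites, and of gamma, delta and epsilon in the central stalk. Of the 7, 5 were lower from 4 to 24 h on each side, 7 in contralateral and 5 in ipsilateral hippocampus. Atp5f1e, the epsilon subunit, had signals in rc_AI171844_g_at lowest at 22626, median 25529 and highest 27980 in contralateral cortex at 4 h, 14603, 17781 and 18501 at 24 h, and 15458, 16517 and 18501 in hippocampus. Cortex of 4 h overlapped neither. The differences were −0.55 ± 0.068 (SE; adjusted p = 1.11e-07) in time and −0.59 ± 0.066 (adjusted p = 5.2e-10) between regions, and −0.56 ± 0.071 and −0.61 ± 0.073 ipsilaterally. The catalytic beta subunit Atp5f1b and both probe sets of the delta subunit Atp5f1d were also lower in all 4, between −0.56 and −0.22. The alpha and gamma subunits Atp5f1a and Atp5f1c were lower in contralateral hippocampus only, by −0.24 each.

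Of the 6 probe sets of the peripheral stalk, the same 2 were lower in all 4 comparisons. Both read Atp5po, the protein that ties this stalk to the head. In D13127_g_at the signal was lowest at 26141, median 35015 and highest 38790 in ipsilateral and 32339, 36515 and 45197 in contralateral cortex at 4 h. At 24 h it was 20511, 24798 and 28964, and 21309, 25529 and 28586; in hippocampus 19223, 23965 and 28102, and 19793, 24895 and 29732. Contralateral cortex of 4 h overlapped no group of 24 h or hippocampus, and ipsilateral cortex of 4 h overlapped each of them. The time differences were −0.46 ± 0.088 (SE; adjusted p = 0.000158) and −0.53 ± 0.085 (adjusted p = 8.1e-06), and the region differences −0.5 ± 0.09 and −0.61 ± 0.082, ipsilaterally and contralaterally. The other peripheral stalk subunits, Atp5pb, Atp5pd and Atp5pf, were called in no comparison, with time and region differences between −0.22 and 0.16.

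Atp5if1, which blocks ATP synthase from running backwards, was lower in hippocampus in 3 of its 4 probe sets on both sides. In D13122_i_at the signal was lowest at 210, median 673 and highest 744 in contralateral cortex at 4 h and 73, 357 and 445 in hippocampus. These overlapped, and the difference was −0.81 ± 0.21 (SE; adjusted p = 0.00199), with −0.72 ± 0.23 ipsilaterally. The assembly factor Ndufaf3 was higher in contralateral hippocampus in 1 of 3 probe sets, by 0.38 ± 0.1 (adjusted p = 0.0028). Ndufa4l2 rose from 4 to 24 h in contralateral cortex in 1 of 5 probe sets, AA686870_i_at, by 0.91 ± 0.25 (adjusted p = 0.00736), from signals of 69.1, 296 and 442 to 311, 569 and 729; at 4 h 1 of the 8 arrays was at the floor. The other 4 were not called there.

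Other genes of mitochondrial energy supply were counted in lists drawn up beside the members, each gene by its brightest tested probe set. Citric acid cycle genes moved in both directions, and the few calls among carriers and energy buffers were more often lower than higher. The shares over all tested probe sets given above apply to these lists too. For their bright genes so do those of the other bright probe sets, 17.1% to 22.5% called lower in the time and region comparisons. Of 13 measured genes of the citric acid cycle and pyruvate oxidation, 3 were higher and 1 lower at 24 h ipsilaterally, and 4 higher and 2 lower contralaterally. Between regions 4 were higher and 4 lower contralaterally, and 2 and 2 ipsilaterally. Pdhb, a subunit of pyruvate dehydrogenase, rose by 0.38 ± 0.12 (SE) and 0.71 ± 0.12 in time, and cytosolic malate dehydrogenase, Mdh1, fell by 0.2 ± 0.048 and 0.18 ± 0.046. The list medians lay between −0.08 and 0.06 in these comparisons.

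Of 13 measured carriers, porins and energy buffers, 2 were lower in time ipsilaterally and 3 contralaterally, with none higher. Between regions 2 were lower ipsilaterally and 4 contralaterally, with 1 higher on each side. Their summed signal had group medians of 271355 ipsilaterally and 269404 contralaterally in cortex at 4 h. These were 234458 and 219778 at 24 h, and 228219 and 226767 in hippocampus. In this sum, on which the brightest genes weigh most, cortex of 4 h was highest, as for the members. Gene by gene the shift was small or absent: the list medians were −0.0 ipsilaterally and −0.14 contralaterally in time. Between regions they were −0.13 and −0.09. The brain creatine kinase Ckb was lower in all 4 comparisons, by −0.58 ± 0.079 (SE) and −0.7 ± 0.076 in time, and the uncoupling protein Ucp2 was higher in hippocampus, by 0.7 ± 0.11 contralaterally and 0.54 ± 0.12 ipsilaterally. Of 6 assembly and chaperone genes measured, the co-chaperonin Hspe1 was higher by 0.43 ± 0.11 in contralateral cortex at 24 h, 1 was higher and 2 lower in contralateral hippocampus, and none was called ipsilaterally. Neither of 2 measured biogenesis regulators was called in time or between regions. Of 7 neuronal markers, Syt1 rose in time by 0.94 ± 0.18 and 0.62 ± 0.17, while Nefm was lower in hippocampus by −0.33 ± 0.095 and −0.49 ± 0.086, ipsilaterally and contralaterally, and Syt1 was higher in ipsilateral hippocampus by 0.68 ± 0.19. The other 5 were called in none of the 4 in their brightest probe sets. Dimmer probe sets of Snap25, 1 of the 5, were left out of these counts. In U56261_s_at its mean log2 signal was 11.21 and 10.85 in cortex at 4 h and 11.99 and 11.71 at 24 h, ipsilaterally and contralaterally. In hippocampus U56261_s_at was higher than in cortex of 4 h (11.42 and 11.34). AB003991_g_at was lower there (14.44 and 14.53 against 14.77 and 14.91).

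Markers of cell types moved with some of these comparisons as well. The summed signal of the 7 neuronal markers had a group median of 127591 in ipsilateral and 132976 in contralateral cortex at 4 h, 134274 and 145346 at 24 h, and 118033 and 121549 in hippocampus. It was thus lowest in hippocampus, as the members were, but not lower in cortex at 24 h. Of 7 astrocyte markers 1 rose and 1 fell ipsilaterally from 4 to 24 h, 1 rose and 2 fell contralaterally, and in hippocampus 2 were higher and 2 lower ipsilaterally and 2 higher and 1 lower contralaterally. Of 5 oligodendrocyte markers 1 and 2 fell in time, and 3 were higher and 1 lower in ipsilateral hippocampus. Of 7 microglia and macrophage markers 2 rose in ipsilateral cortex and 1 fell in contralateral cortex, and 1 was higher in hippocampus on each side. The part of cell composition in the members' differences was not tested.

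Probe sets of 1 gene did not always agree. Of 27 genes with more than 1 tested probe set, 7 had all of them lower from 4 to 24 h ipsilaterally, 11 some and 9 none; contralaterally 5 had all lower, 12 some, 2 some higher, and 8 none called. Over all 9 comparisons, 24 probe sets were called in none. The 9 genes without a call in their member probe sets were Atp5pb, Atp5pd, Atp5pf, Cox5a, Cox6c, Cox6c-ps1, Cox8b, Ndufb11 and Uqcrc2; for Cox5a this excludes X15030_at, described above.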

How the data were processed

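Trizol was used to extract rat brain total RNA, per the labels, for 47 arrays. Each probe set has 1 deposited linear intensity per array; how the authors summarised and scaled probes is not given in the sources used here. Trimmed means (2%) of the arrays ran from 2503 to 2504, a spread under the 5% allowed, so no further normalization was applied. Tests used R 4.3.3 with the packages data.table (1.17.8) and limma (3.58.1), with a single linear model of 6 group means on all 47 arrays without the 59 control probe sets, eBayes with an intensity trend, two-sided, Benjamini-Hochberg over 7503 probe sets within each of 9 comparisons, threshold 0.05. Precision is limited by how many arrays each group has.

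Gene symbols came from the platform annotation (7018 probe sets name 1 gene, 308 several, 1473 none); all 55 member genes matched RefSeq by gene ID. Members, lists and tests were chosen with earlier results of these data known. Genes given with values were Ndufv2, Ndufs1, Ndufa5 and Atp5po; up to 5 of the largest rises and of the largest falls past the threshold in each comparison, or the 2 smallest p where none passed; isoforms of 1 subunit; all probe sets of a gene so named; and up to 3 called genes of each other list. Other members are given by counts and ranges, and Ndufc2, Pvalb, X15030_at and members named for being called in all or no comparisons were chosen after their values were seen. Alternatives were quantile normalization, another floor, no filter, no trend, array weights, each array's 10th percentile of signal as a model term, 1 probe set per gene, only the compared groups and each array left out.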

Additional observations from a re-analysis of the deposited data

Results flagged for a closer look

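Of 141 groups of values tested, 11 held an array whose gap to the others exceeded Dixon's limit, and chance flags about 1 in 20. On single arrays the log2 signal was low for Ndufa4l2 in AA684960_f_at (contralateral hippocampus, array 30, 9.53; others 10.18 to 10.42), Atp5if1 in D13122_i_at (contralateral cortex at 4 h, array 14, 7.71; others 8.94 to 9.54) and Ndufa5 (ipsilateral cortex at 24 h, array 38, 12.59; others 12.86 to 13.04). It was also low for Cox6a1 (ipsilateral hippocampus, array 24, 15.25; others 15.52 to 15.62), Ndufa4 (contralateral cortex at 4 h, array 16, 13.23; others 14.35 to 14.64), Ndufb9 (contralateral hippocampus, array 27, 12.87; others 13.86 to 14.45) and Atp5f1e (contralateral cortex at 24 h, array 46, 13.83; others 14.03 to 14.18). The mean of complex I was low on array 4 of ipsilateral cortex at 4 h (−0.02; others 0.15 to 0.23) and high on array 16 of contralateral cortex at 4 h (0.3; others 0.09 to 0.18). The mean of complex V was high on array 34 of ipsilateral cortex at 24 h (0.24; others −0.07 to 0.04) and array 18 of ipsilateral hippocampus (0.0; others −0.15 to −0.09). Array 16 was thus high for the mean of complex I and low for Ndufa4. The side difference of Cox4i2 at 4 h differed between hippocampus and cortex by −0.83 in the test of that difference.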

How the results depend on the processing

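Of 553 values, 79 named differences under 7 alternatives each, 530 kept their direction and side of the threshold, 22 lost the call, 1 gained it and 0 changed direction; 12 of the 22 were lost when each array's 10th percentile of signal entered as a covariate. In hippocampus between the sides, 25 members were called with array weights, 0 with the covariate and 9 with 1 probe set per gene, and 9 to 19 without 1 array. With 1 probe set per gene, of fewer tested, 29 were called in ipsilateral and 23 in contralateral cortex over time, 36 in contralateral and 33 in ipsilateral hippocampus against cortex. Quantile normalization left 27 in contralateral cortex over time. Against cortex of 24 h, 31 were called in contralateral and 6 in ipsilateral hippocampus. The side difference between regions was called for 2 members with array weights and 0 with the covariate, where its member median was −0.03 instead of 0.05, and for 1 to 2 without 1 array; it was 2 without array 7, 8, 12, 17, 19, 22 or 31. Without 1 array the calls ranged from 39 to 47 and 39 to 43 over time (ipsilateral, contralateral), 47 to 53 and 58 to 64 between regions, and stayed at 0 in cortex between sides. No background correction or slide block was run, since the deposited values hold neither. No paired analysis was possible, because the labels do not tell which samples came from the same animal. The sample numbers are extraction numbers and do not recur, so pairing is unknown. Dim probe sets near the floor, as for Cox8b, can hide differences.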

Other observations

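A further 6 probe sets read subunits of these complexes but carry several symbols, each with a copy or pseudogene: Atp5mc1, Atp5mc2, Cox5a, Cox7a2, Ndufb4 and Ndufs5. They were left out of the counts above. From 4 to 24 h 1 of them was lower on each side, the probe set X15030_at for Cox5a in both, and in hippocampus against cortex of 4 h 5 were lower on each side, with none higher in these comparisons.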
